A study of Mus musculus with 4 samples.

Results

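Cholesterol and fatty acid synthesis genes were examined as a group of 32 genes, chosen by symbol from the 55401 genes of the deposited count table. They comprised 7 enzymes of the mevalonate steps, 11 enzymes of the later sterol steps, 5 genes of SREBP control and sterol transport, and 9 enzymes of fatty acid synthesis, elongation and desaturation. All 32 were found, each in a single row. Poly(A) RNA was sequenced from splenic B cells of C57BL/6 mice in 4 libraries, 2 of wild-type genotype and 2 labelled Adar1 cKO, a conditional knockout in B cells. Adar1 (symbol Adar) encodes the enzyme that deaminates adenosine to inosine in double-stranded RNA. Cells of both genotypes had been purified with anti-CD43 beads and kept for 36 h in culture with 10% serum, anti-IgM at 10 µg/ml and anti-CD40 at 1 µg/ml, so that no unstimulated cells enter the comparison. The sources used here do not give the Cre driver, the deleted part of the gene, the age of the mice or whether libraries came from separate mice. The spread between libraries that the p-values rest on may thus be technical.

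Cells make cholesterol from acetyl-CoA through mevalonate and squalene, and fatty acids from acetyl-CoA through malonyl-CoA. Transcription of both pathways is driven by SREBP1 and SREBP2 (genes Srebf1 and Srebf2), membrane-bound factors that the escort protein SCAP carries to the Golgi for cleavage when membrane sterols are low, and that INSIG proteins hold in the endoplasmic reticulum when sterols are high. Liver X receptors (LXRs), which are activated by oxysterols, induce Srebf1, Scd1 and genes of cholesterol export. Lymphocytes that enter the cell cycle raise lipid synthesis to build membranes.

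Total counts were between 17327480 and 19669651 per library. Adar itself stood at 137 and 150.0 CPM (counts scaled to library size with TMM factors) in wild type and at 218 and 233 CPM in the libraries labelled cKO. Counts over the whole gene thus rose by 0.65 ± 0.063 (log2 ± SE, edgeR adjusted p = 3.39e-08) and did not fall. The label could not be checked from them, so these libraries are called cKO-labelled throughout. Because the deleted part is not known, a count over the whole gene does not check the deletion itself. Of the marker lists of cell types, the B-cell list had 5 of 7 markers lower, with summed levels of 4529.7 and 4507.2 CPM in wild type against 3441.4 and 3536.5 CPM. For dendritic cells 4 of 5 tested markers were higher, with sums of 60.1 and 59.1 CPM against 114 and 119.8 CPM, and Cd209a had no count in any library. The macrophage list had 1 of 5 tested markers lower, with sums of 129 and 124 CPM against 46.6 and 55.5 CPM. Sums for T and NK cells (0 of 2 tested called), neutrophils (1 of 2 higher) and erythroid cells (2 of 3 higher) were at most 4.3 CPM, and Ly6g had no count. The stromal list, at 61.9 to 76.9 CPM, had 1 of 2 tested markers higher. All 10 interferon-stimulated genes examined were higher, with summed levels of 336 and 327 CPM against 1178 and 1174 CPM. For comparison with these counts, 9.54% of all genes tested were called lower and 12.2% higher (edgeR, adjusted p under 0.05). The part of cell composition and of the interferon-stimulated genes in the results below was not tested, and in bulk RNA fewer cells of a type cannot be told apart from less RNA per cell.

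Transcripts of lipid synthesis were lower in the cKO-labelled libraries across all 4 roles. Of the 32 genes, 23 fell and 0 rose in edgeR's quasi-likelihood test, where a gene was called if its Benjamini-Hochberg adjusted p over the 14180 genes tested was under 0.05. Of all genes tested, 9.54% were called lower and 12.2% higher, or 21.7% in either direction. DESeq2 called 21 of the 32 lower and 0 higher, and over all genes tested 795 lower and 1235 higher. At an unadjusted p under 0.05 edgeR had 27 lower and 0 higher, where 4587 of the 14180 genes tested passed in either direction. The fitted change was below 0 for all 32 genes, with a median of -0.35 and a range from -1.32 to -0.04 (log2, cKO-labelled minus wild type), where the median over all genes tested was -0.0058. For 29 of the 32, both cKO-labelled libraries lay below both wild-type libraries, an arrangement found for 28.7% of all genes tested, while 29.2% had the opposite one. All 32 passed the filter on low counts, so none was left out.

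Together the 32 genes took 0.57% of counts in wild-type library 1 (Wilson 95% interval 0.567 to 0.574) and 0.58% in wild-type library 2 (0.577 to 0.584). They took 0.42% in cKO-labelled library 1 (0.417 to 0.423) and 0.395% in cKO-labelled library 2 (0.392 to 0.398). Fatty acid enzymes accounted for most of this difference, with a summed level of 3007 and 3073 CPM in wild type against 1965 and 1792 CPM. The 18 cholesterol enzymes summed to 1437 and 1438 CPM and to 1201 and 1121 CPM, in the same order. The cKO-labelled libraries were not alike in depth of the fall: library 2 was below library 1 for 24 of the 32 genes, against 47.7% of all genes tested. Wild-type library 2 was below library 1 for 14 of the 32.

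**Figure D1:**
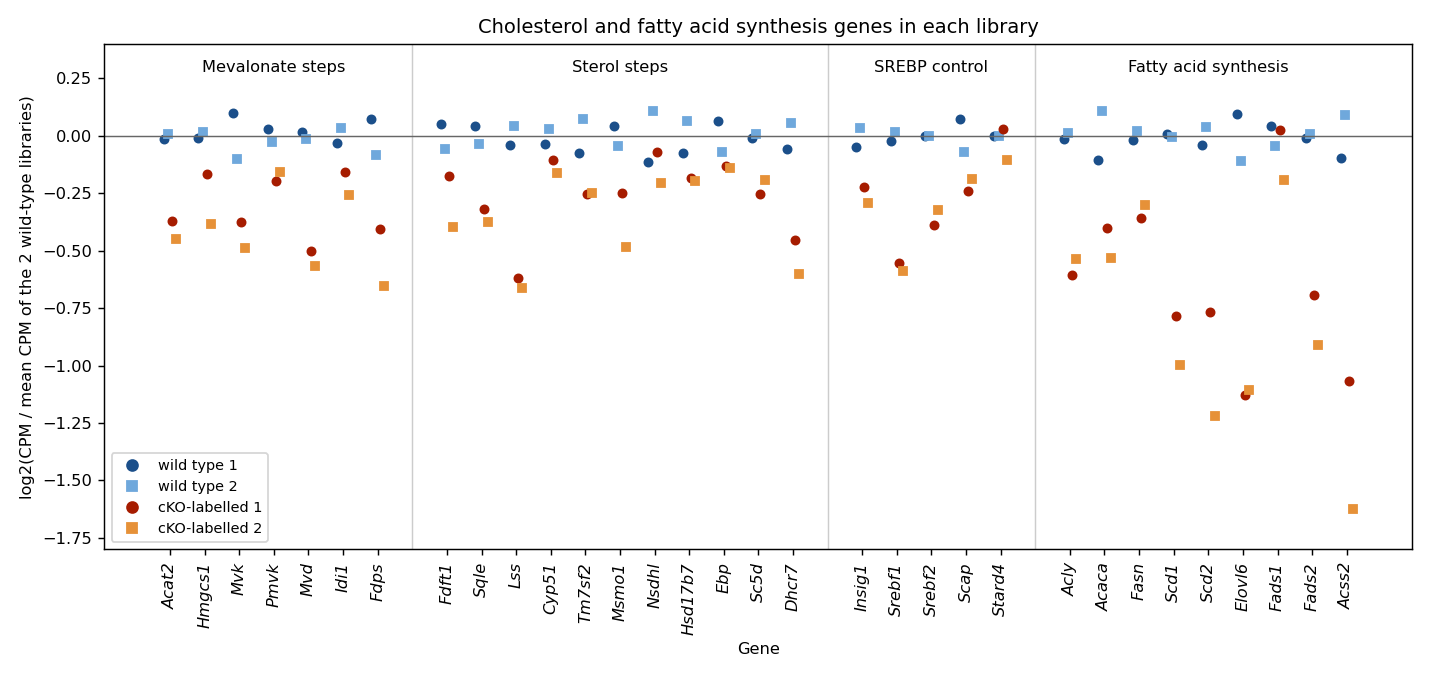
CPM of each gene in each of the 4 libraries, as log2 of its ratio to the mean of both wild-type libraries, with genes on the x axis grouped by role. Points of the cKO-labelled libraries lie below the wild-type points for 29 of the 32 genes, and lowest for Acss2, Elovl6, Scd2 and Scd1.

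To show what the genes share in sequence, the 250 bases before their RefSeq transcription starts (build GRCm38.p6) were searched on both strands for letters of motifs known to bind SREBP and its partners. Promoters were found for 25 of the 32 genes, 31 promoters in all. Fdps, Fdft1, Sqle, Stard4, Scd1, Scd2 and Fads1 had none in the table used. The sterol regulatory element TCACNCCAC, the SREBP site in one of its forms, was found in 1 of the 31 promoters, that of Hmgcs1, and in 1.03% of the 12657 promoters of genes tested. The CCAAT box, bound by NF-Y, was in 20 of the 31 (64.5%) and in 35.8% of promoters of genes tested. The GC box GGGCGG, bound by Sp1 family factors, was in 23 of the 31 (74.2%) and in 55.8%. The E-box CACGTG was in 5 of the 31 (16.1%) and in 8.36%. Each motif was searched independently, so that matches of different motifs could overlap. They are letter matches and not measured sites. Of the 19 genes whose promoters held CCAAT, 12 were called lower and 7 were not. All 6 genes whose promoters lacked the box (Acaca, Acat2, Acly, Elovl6, Fads2 and Scap) were called lower, against 9.54% of all genes tested. Acaca, Acly, Elovl6 and Fads2 are fatty acid genes, of which 8 of 9 were called lower. The split by motif thus partly followed role, and it was not tested.
The upstream stretches of 4 genes called lower are given 5′ to 3′ on the strand of the gene, with the matches to any of these motifs in capitals, and cut where the deposited gene model starts before the RefSeq one. Hmgcs1 (chr13:119690101-119690350, plus strand) is shown for its sterol regulatory element, Insig1 (chr5:28071162-28071362, plus strand) for its E-box, Lss (chr10:76531355-76531587, plus strand) as the sterol enzyme with the largest fall, and Acly (chr11:100528001-100528250, minus strand) as a fatty acid gene with GC boxes and no CCAAT box.
Hmgcs1: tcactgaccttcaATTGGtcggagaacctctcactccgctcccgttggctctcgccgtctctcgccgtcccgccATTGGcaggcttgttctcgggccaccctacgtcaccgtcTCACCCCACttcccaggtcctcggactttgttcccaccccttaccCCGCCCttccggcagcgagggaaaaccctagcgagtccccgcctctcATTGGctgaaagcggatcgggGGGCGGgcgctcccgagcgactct
Insig1: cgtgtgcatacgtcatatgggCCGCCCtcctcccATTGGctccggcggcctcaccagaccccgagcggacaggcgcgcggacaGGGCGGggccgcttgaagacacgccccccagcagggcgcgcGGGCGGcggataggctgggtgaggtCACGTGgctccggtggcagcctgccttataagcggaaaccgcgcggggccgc
Lss: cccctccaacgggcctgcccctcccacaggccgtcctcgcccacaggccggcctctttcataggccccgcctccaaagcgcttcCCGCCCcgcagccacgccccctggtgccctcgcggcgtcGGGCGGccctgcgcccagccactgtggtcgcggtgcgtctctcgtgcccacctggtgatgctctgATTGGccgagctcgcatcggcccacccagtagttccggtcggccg
Acly: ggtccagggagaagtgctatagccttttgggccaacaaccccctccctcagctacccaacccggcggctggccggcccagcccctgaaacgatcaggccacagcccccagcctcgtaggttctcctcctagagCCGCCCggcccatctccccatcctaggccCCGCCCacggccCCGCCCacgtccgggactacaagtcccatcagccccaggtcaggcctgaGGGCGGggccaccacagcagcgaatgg

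**Figure D2:**
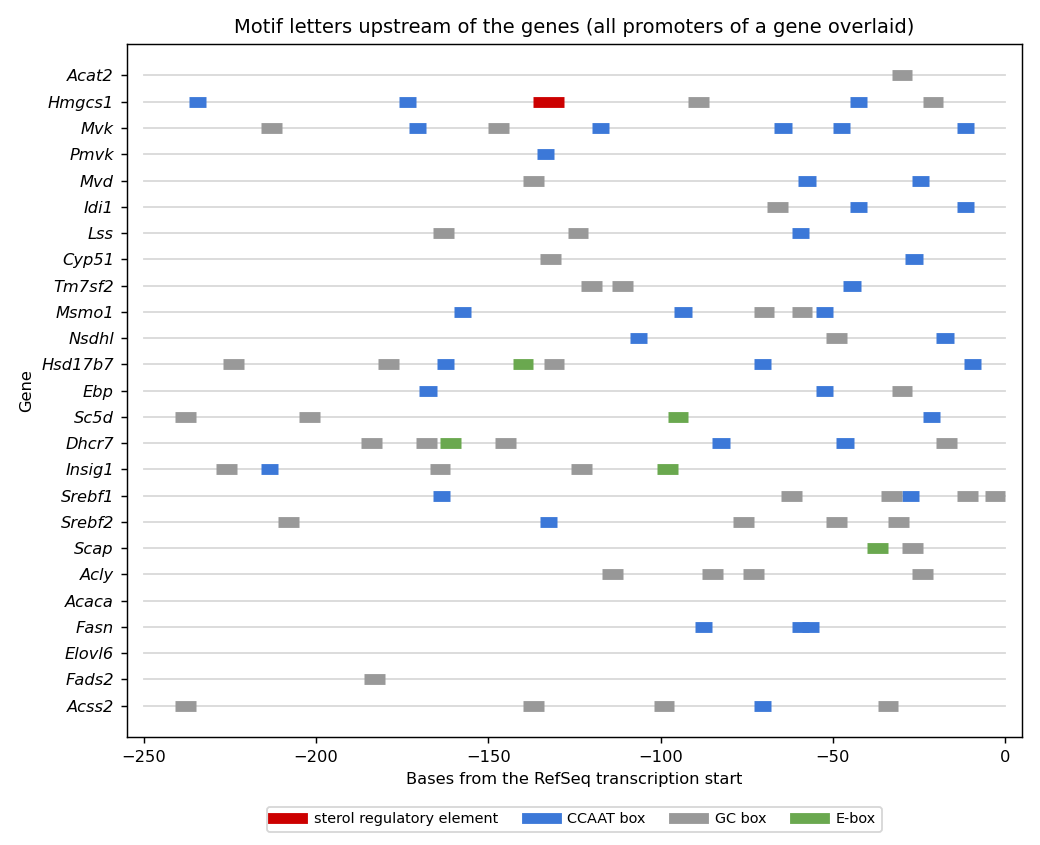
Positions of the motif letters in the 250 bases before the RefSeq start for the 25 genes with a promoter, in bases from the start, with all promoters of a gene overlaid. CCAAT letters appear for 19 of the 25 genes, and the single sterol regulatory element lies in the row of Hmgcs1, starting 137 bases before the start (at -137).

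Of the 5 genes of SREBP control and sterol transport, 4 fell and 0 rose, against 9.54% and 12.2% of all genes tested. Their median change was -0.25. Srebf1, which encodes SREBP1 (ENSMUSG00000020538, chromosome 11, 60199089 to 60222581), stood at 179 and 184 CPM in wild type against 124 and 121 CPM. The groups did not overlap, and the change was -0.56 ± 0.059 (adjusted p = 1.12e-07). Rai1, which overlaps Srebf1 on the opposite strand over 109 exonic bases, changed by -0.18 (adjusted p = 0.0393). Srebf2, which encodes SREBP2 (ENSMUSG00000022463, chromosome 15, 82147181 to 82205379), stood at 747 and 747 CPM in wild type against 571 and 598 CPM. Its change was -0.36 ± 0.055 (adjusted p = 3.59e-05), with both cKO-labelled libraries well below the wild-type pair. Insig1 (chromosome 5, 28071363 to 28078662), which holds the SREBP complex in the endoplasmic reticulum and is itself an SREBP target, fell from 121 and 128 CPM to 107 and 102 CPM (-0.25 ± 0.062, adjusted p = 0.00422). Without wild-type library 2 its change was -0.22, with an adjusted p of 0.0543. Scap, the escort of SREBP, had 102 and 92.5 CPM in wild type against 82.2 and 85.2 CPM. Its change of -0.21 ± 0.066 (adjusted p = 0.0222) was called, but not by DESeq2 (adjusted p = 0.102), after removal of the GC trend (0.187), without wild-type library 1 (0.282) or without cKO-labelled library 1 (0.0904). Stard4, a soluble carrier that moves cholesterol between membranes, did not pass the test. It had 142 and 142 CPM in wild type against 145 and 132 CPM, with overlapping groups and a change of -0.04 ± 0.062 (approximate 95% interval from -0.16 to 0.08).

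The mevalonate steps turn acetyl-CoA into the isoprenoid units of sterols. Of their 7 enzymes 5 fell and 0 rose, against 9.54% and 12.2% of all genes tested, with a median change of -0.41. Mvd, the decarboxylase that makes isopentenyl diphosphate (ENSMUSG00000006517, chromosome 8, 122433601 to 122443422), fell from 85.4 and 83.6 CPM to 59.7 and 57.0 CPM (-0.53 ± 0.066, adjusted p = 1.62e-06). Fdps, which joins the units into farnesyl diphosphate (chromosome 3, 89093588 to 89101959), fell from 72.5 and 65.0 CPM to 51.9 and 43.7 CPM (-0.52 ± 0.082, adjusted p = 4.20e-05). Of the windows of 100 bases in its transcripts, 21.4% also occur in other genes, most of them in Gm43738, which had no count. Acat2, the cytosolic thiolase that opens the pathway, stood at 56.5 and 57.4 CPM and at 44.1 and 41.7 CPM, a change of -0.41 ± 0.075. Its closest relative Acat3 shares 28.9% of these windows but was counted at 0.888 to 2.46 CPM, far below it.

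The kinase gene Mvk stood at 33.3 and 29.0 CPM in wild type against 24.0 and 22.2 CPM (-0.43 ± 0.11, adjusted p = 0.00466). It lost its call after removal of the GC trend (adjusted p = 0.0543) and without wild-type library 1 (0.0725). Hmgcs1, the HMG-CoA synthase whose promoter holds the sterol regulatory element (ENSMUSG00000093930, chromosome 13, 119690379 to 119708260), fell from 192 and 195 CPM to 172 and 148 CPM. Its change was -0.27 ± 0.067 (adjusted p = 0.00418), and without cKO-labelled library 2, the lower of the pair, it was -0.17 with an adjusted p of 0.114. Pmvk, the next kinase, and Idi1, the isomerase of the isoprenoid units, did not pass the test, at -0.18 ± 0.079 and -0.21 ± 0.082. Neither overlapped between genotypes, an arrangement with lower cKO-labelled libraries that 28.7% of all genes tested had. For Idi1 the change was -0.30 (adjusted p = 0.0106) once the GC trend was removed, and 15.8% of its windows also occur in Gm13502, which stood at 0.63 to 0.929 CPM.

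The later steps build squalene, close it to lanosterol and trim it to cholesterol. Of these 11 enzymes 6 fell and 0 rose, against 9.54% and 12.2% of all genes tested, with a median of -0.25. Lss, the lanosterol synthase (ENSMUSG00000033105, chromosome 10, 76531588 to 76557138), had 100.1 and 106 CPM in wild type against 67.0 and 65.1 CPM. The libraries of each genotype lay close together and far from the other, and its change of -0.64 ± 0.064 (adjusted p = 6.18e-08) was the largest among the 18 cholesterol enzymes, although Lss and Fdps both stood at -0.61 without wild-type library 2. Dhcr7, the reductase of the last step (chromosome 7, 143823145 to 143848410), fell from 56.7 and 61.4 CPM to 43.1 and 38.9 CPM (-0.53 ± 0.080, adjusted p = 2.60e-05). Sqle, the squalene epoxidase and a rate-limiting step after mevalonate, fell from 135 and 128 CPM to 105 and 101 CPM (-0.35 ± 0.061, adjusted p = 1.35e-04). Msmo1, a methyl sterol oxidase, stood at 86.3 and 81.4 CPM and at 70.6 and 60.0 CPM, a change of -0.36 ± 0.074.

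Smaller changes were called for Fdft1, the squalene synthase, at -0.28 ± 0.075, and for Sc5d, a sterol desaturase, at -0.22 ± 0.065. Both calls were lost in some alternatives. For Fdft1 the adjusted p was 0.0724 without wild-type library 1 and 0.138 without cKO-labelled library 2. For Sc5d it was 0.0567 and 0.0889 without wild-type libraries 1 and 2, 0.0847 without cKO-labelled library 1, and 0.0921 by DESeq2. Ctsb overlaps Fdft1 on the opposite strand over 774 exonic bases and stood at 137 to 161 CPM, with a change of 0.04 (adjusted p = 0.785). The library kit does not mark strand, so reads in such overlaps cannot be told apart.

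The other 5 sterol enzymes did not pass the test. Cyp51, the sterol demethylase and the most abundant sterol enzyme per length, stood at 249 and 260.2 CPM in wild type against 237 and 228 CPM. The groups did not overlap, and its change was -0.13 ± 0.058 (adjusted p = 0.117), or -0.17 (adjusted p = 0.0338) once the GC trend was removed. Tm7sf2 shares 532 exonic bases with Vps51. The reductases Tm7sf2 and Hsd17b7 and the isomerase Ebp had changes of -0.25 ± 0.16, -0.19 ± 0.091 and -0.14 ± 0.084. Each was without overlap between genotypes, as were 28.7% of all genes tested in this direction. Nsdhl, a sterol dehydrogenase, overlapped, with 25.2 and 29.4 CPM against 26.0 and 23.7 CPM and a change of -0.14 ± 0.11. The 6 called sterol enzymes ranged from Lss, at 64.0% of the wild-type level as fitted, to Sc5d, at 85.7%.

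**Figure D3:**
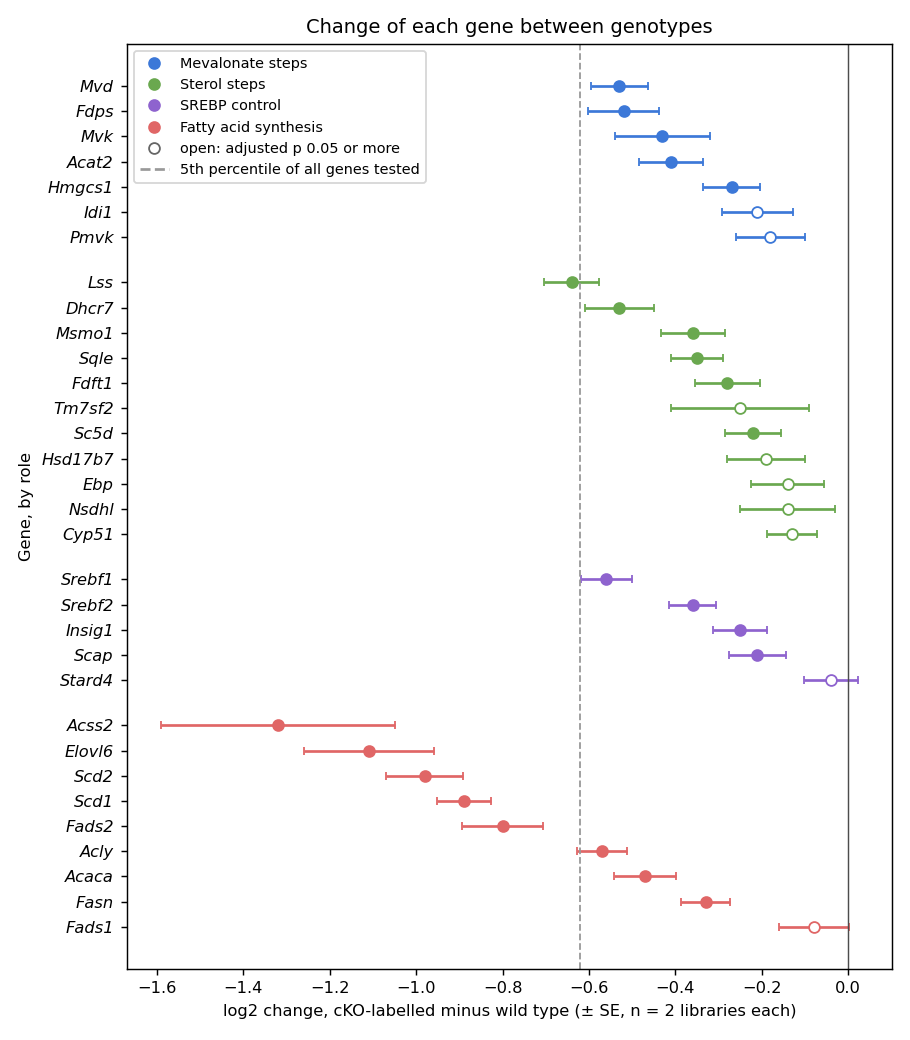
Log2 change of each gene, cKO-labelled minus wild type, with the SE of edgeR's fit as bars and n = 2 libraries per genotype, in rows grouped by role. Filled points were called at an adjusted p under 0.05, and the dashed line marks the 5th percentile of all genes tested, at -0.62, below which lie Lss, Acss2, Elovl6, Scd2, Scd1 and Fads2.

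Among fatty acid genes 8 of 9 fell and 0 rose, against 9.54% and 12.2% of all genes tested. Their median was -0.80, below the median of -0.28 for the 18 cholesterol enzymes. The difference between these groups of genes was not tested. Of the 6 genes of the whole set whose change lay under the 5th percentile of all genes tested (-0.62), 5 were fatty acid genes. The stearoyl-CoA desaturases, which place the first double bond in saturated fatty acids, were the most abundant of the set per exonic length in wild type. Scd1 (ENSMUSG00000037071, chromosome 19, 44394455 to 44407879) stood at 967 and 958 CPM in wild type against 558 and 482 CPM. Both cKO-labelled libraries were far below wild type, and the change of -0.89 ± 0.063 (adjusted p = 1.36e-10) corresponds to 54.0% of the wild-type level. Scd2, its neighbour on the same chromosome (ENSMUSG00000025203, 44293674 to 44306864), stood at 685 and 723 CPM in wild type against 414 and 302 CPM. Its change was -0.98 ± 0.089 (adjusted p = 1.29e-08), with a wider gap between the cKO-labelled libraries than for Scd1. The paralogs Scd3 and Scd4 had at most 0.573 CPM. Between Scd1 and Scd2 transcripts, 0.879% of the windows of Scd2 were shared.

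Elovl6 and Acss2, both far less abundant than these desaturases, also fell. Elovl6, which elongates palmitate (ENSMUSG00000041220, chromosome 3, 129532355 to 129638495), was counted 323 and 318 times in wild type against 144 and 142 times, or 18.7 and 16.2 CPM against 8.0 and 8.14 CPM. Its change was -1.11 ± 0.15 (adjusted p = 5.50e-06), or 46.3% of the wild-type level. Acss2, which makes acetyl-CoA from acetate (ENSMUSG00000027605, chromosome 2, 155517948 to 155585724), was the least abundant of the 32, counted 94 and 122 times in wild type against 50 and 33 times. Its change of -1.32 ± 0.27 (adjusted p = 9.17e-04) had the widest SE of the set, and without cKO-labelled library 2 it was -1.07, against -1.12 for Elovl6. Gss overlaps Acss2 on the opposite strand over 395 exonic bases and stood at 17.7 to 22.9 CPM, with a change of -0.23 (adjusted p = 0.187).

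Acly, the ATP citrate lyase that supplies cytosolic acetyl-CoA to both pathways (ENSMUSG00000020917, chromosome 11, 100476353 to 100528000), fell from 596 and 606 CPM to 395 and 414 CPM. The groups did not overlap, and its change was -0.57 ± 0.057 (adjusted p = 5.54e-08). Acaca, the acetyl-CoA carboxylase that makes malonyl-CoA, fell from 120.0 and 139 CPM to 97.8 and 89.3 CPM (-0.47 ± 0.071, adjusted p = 2.55e-05). Of its windows 23.7% also occur in other genes, nearly all in Gm5182, which stood at 16.7 to 20.5 CPM with a change of -0.18 (adjusted p = 0.344). Fasn, the fatty acid synthase, fell from 515 and 529 CPM to 407 and 424 CPM (-0.33 ± 0.057, adjusted p = 1.30e-04).

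The desaturases of polyunsaturated fatty acids both lie on chromosome 19 and gave different values. Fads2 (10062765 to 10101746, minus strand) stood at 45.5 and 46.1 CPM in wild type against 28.3 and 24.4 CPM, a change of -0.80 ± 0.093 (adjusted p = 6.39e-07). Fads1 (10182888 to 10196877, plus strand) stood at 54.1 and 50.9 CPM against 53.5 and 46.0 CPM, so that its groups overlapped. Its change was -0.08 ± 0.081 (adjusted p = 0.581). The approximate 95% intervals, from -0.98 to -0.61 for Fads2 and from -0.24 to 0.08 for Fads1, did not overlap, but the difference between both genes was not tested.

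Per exonic length the set spanned a wide range of levels. In deposited FPKM (counts scaled by exonic length and library total), the wild-type libraries held 197 and 196 for Scd1, 125 and 132 for Scd2, 112 and 115 for Acly, and 103 and 104 for Srebf2. All 4 stood apart from the next gene, Cyp51, at 56.1 and 58.9 FPKM. In the cKO-labelled libraries Scd1 held 114 and 98.6 FPKM and remained the highest, while Scd2, at 75.8 and 55.3 FPKM, overlapped Acly (74.9 and 78.4) and lay below Srebf2 (79.5 and 83.2). Among cholesterol enzymes Cyp51, Mvd and Hmgcs1 were the most abundant, with wild-type means of 57.5, 45.3 and 42.0 FPKM. Elovl6 and Tm7sf2, with wild-type means of 2.71 and 2.65 FPKM, did not differ beyond their spread. Acss2 was lowest, at 0.53 and 0.61 FPKM. The exonic length covers all annotated exons of a gene, so FPKM is lower where many of them are rarely used.

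**Figure D4:**
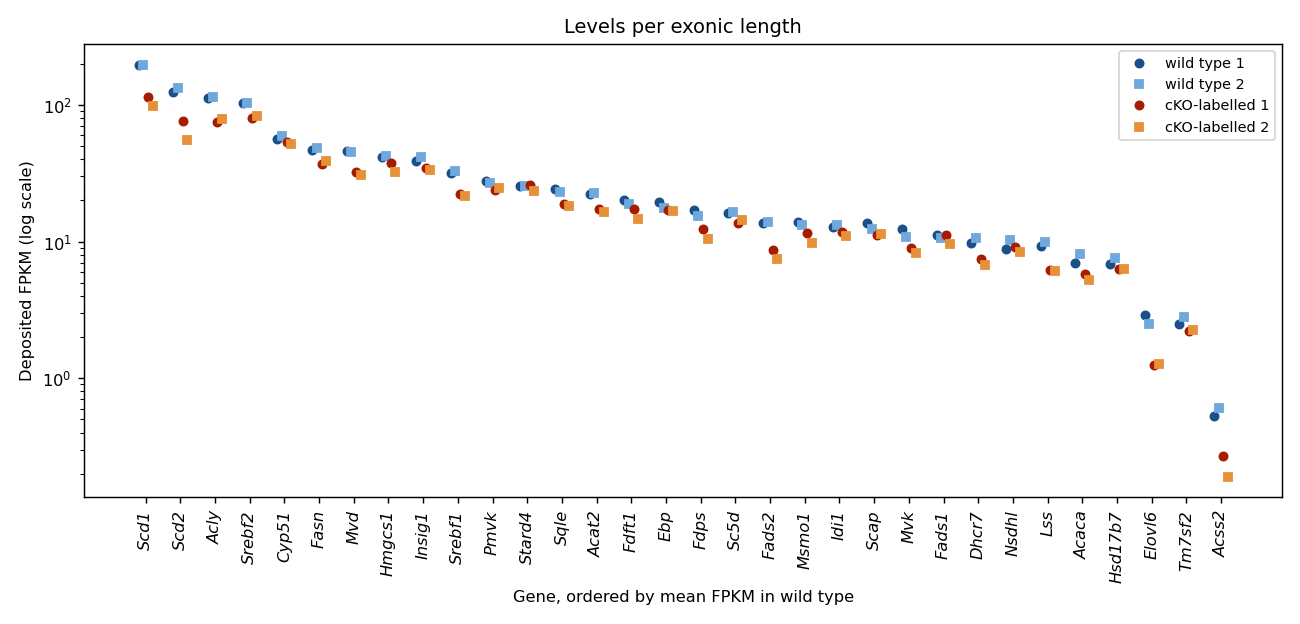
Deposited FPKM of each gene in the 4 libraries on a log scale, with genes ordered by the mean of the wild-type libraries. Scd1, Scd2, Acly and Srebf2 stand at 103 FPKM or more in wild type, and the cKO-labelled points of Scd2 fall to 75.8 and 55.3.

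Other genes of sterol and fatty acid metabolism, listed by function, went partly the same way. Of 20 further genes listed under synthesis, tested and reported, 7 fell and 2 rose. Of all genes tested, 9.54% were called lower and 12.2% higher. Slc25a1, the mitochondrial carrier that exports citrate for Acly, fell from 137 and 127 CPM to 95.6 and 90.4 CPM (-0.50 ± 0.063, adjusted p = 1.90e-06). Also lower were Mid1ip1, an activator of acetyl-CoA carboxylase (-0.47 ± 0.079), Tecr, a reductase of fatty acid elongation (-0.41 ± 0.069), the phosphatidate phosphatase gene Lpin1 (-0.56 ± 0.14), the mitochondrial thiolase gene Acat1 (-0.26 ± 0.062), the malonyl transferase gene Mcat (-0.32 ± 0.10) and the elongase gene Elovl1 (-0.24 ± 0.066). The 2 that rose were Ggps1, which makes geranylgeranyl diphosphate for protein prenylation, at 0.31 ± 0.095, and the acyl-CoA synthetase gene Acsl5, at 0.19 ± 0.059. Insig2, the second retention gene of SREBP and also named after its values were seen, was uncalled at 0.33 ± 0.12 (adjusted p = 0.0518), and in 4 alternatives its adjusted p was 0.0323 to 0.0492. Named on the same ground, the acyl-CoA synthetase gene Acsl3 was uncalled at -0.26 ± 0.10 (adjusted p = 0.0688) and was called lower in 3 alternatives (adjusted p = 0.02 to 0.0395), and Erg28, a scaffold of sterol enzymes, was uncalled at -0.13 ± 0.072 and was called lower without cKO-labelled library 1 (-0.25, adjusted p = 0.0176). The calls of Ggps1, Acsl5, Mcat and Elovl1 were each lost in 3 or more alternatives, and that of Lpin1 without wild-type library 2 (adjusted p = 0.103).

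Genes of oxysterols and LXR action were lower where they were called. Of 10 tested, 4 fell and 0 rose, where 9.54% of all genes tested were called lower and 12.2% higher. Apoe, a lipoprotein component and LXR target named after its values were seen, was uncalled at 0.13 ± 0.068, but was called at 0.27 (adjusted p = 0.0105) once the GC trend was removed and at 0.23 (adjusted p = 0.0168) without cKO-labelled library 2. Rxrb, a partner receptor of LXRs named on the same ground, was uncalled at -0.16 ± 0.064 and was called at -0.21 (adjusted p = 0.0419) without cKO-labelled library 2. Abca1, the cholesterol exporter, had 22.5 and 22.5 CPM in wild type against 13.0 and 10.4 CPM (-0.95 ± 0.13, adjusted p = 1.07e-05). Mylip, a ubiquitin ligase, had 19.2 and 18.4 CPM against 11.7 and 9.0 CPM (-0.86 ± 0.15, adjusted p = 1.10e-04). Lpcat3, a phospholipid acyltransferase, changed by -0.38 ± 0.072 (adjusted p = 3.95e-04). Abcg1, a second exporter, changed by -0.54 ± 0.15 (adjusted p = 0.0107), but its adjusted p was 0.0941 without wild-type library 1 and 0.17 without cKO-labelled library 2. Abca1, Abcg1, Mylip and Lpcat3 are known LXR targets, as are Srebf1 and Scd1 above and Apoe, which did not fall. LXR activity was not tested. Ch25h, which makes the oxysterol that in macrophages restrains SREBP cleavage after interferon, was counted 0 and 0 times in wild type against 1 and 0 times, where 3 counts correspond to 0.153 to 0.173 CPM. It was not detectable at this depth beyond that single count. Isg15, an interferon-induced ubiquitin-like protein, rose from 41.3 and 34.3 CPM to 173 and 158 CPM in the same libraries. The part of interferon and of oxysterols in the changes above was not tested, and transcript counts do not measure oxysterols.

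**Figure D5:**
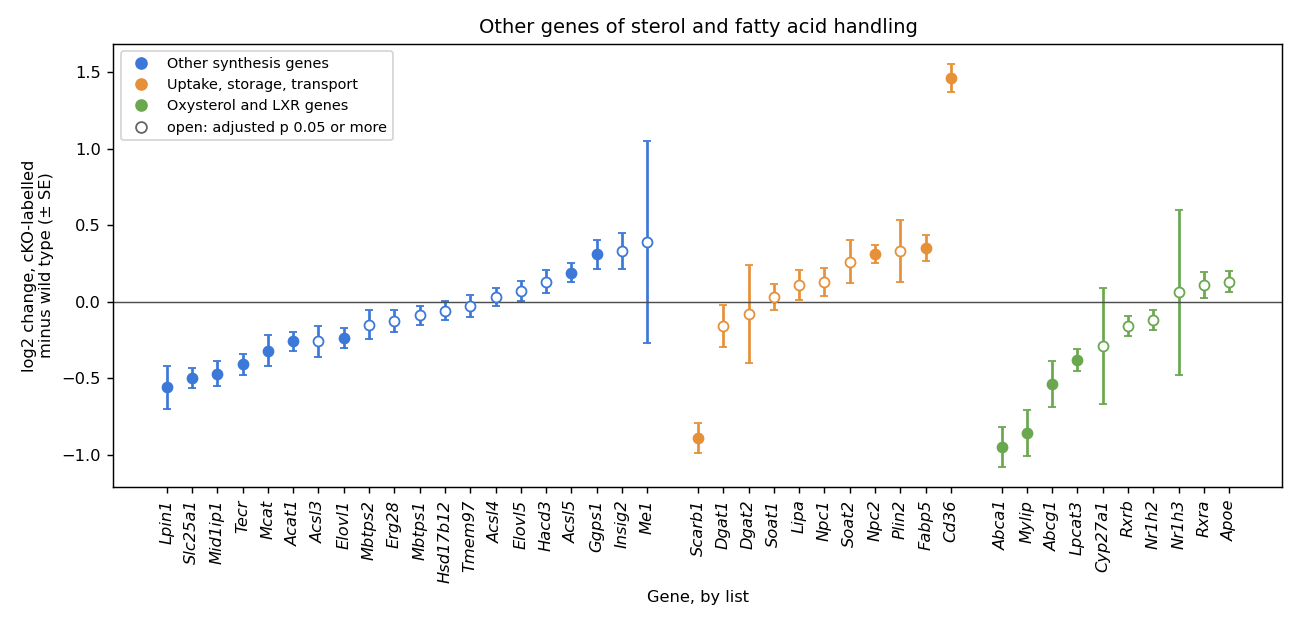
Log2 change, cKO-labelled minus wild type, of 41 other genes tested of sterol and fatty acid handling, with the SE of edgeR's fit as bars, in 3 lists ordered by change. Filled points were called at an adjusted p under 0.05: 12 lie below 0, among them Abca1, Scarb1 and Mylip, and 5 above, with Cd36 highest at 1.46. Of all genes tested, 9.54% were called lower and 12.2% higher.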

How the data were processed

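The submitters' processing notes name HTSeq 0.6.1, HISAT2 2.0.1, cutadapt 1.9.1, bcl2fastq 2.17.1.14 and build GRCm38. The sources used here give no settings, strand handling or annotation release. The deposited table holds whole-number counts per gene, and FPKM by the authors. FPKM recomputed from count, exonic length and library total lay within 0.005 of the deposited FPKM. Every row named a gene, and 0 columns of per-sample values were left unmapped.

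Counts were tested with edgeR 4.0.16 in R 4.3.3. The function filterByExpr (minimum count 10, minimum total 15) kept 14180 genes. After TMM scaling, glmQLFit and glmQLFTest compared 2 libraries labelled cKO with 2 of wild type, with Benjamini-Hochberg adjustment over all genes tested and a threshold of 0.05. Each SE is the size of the log2 change over the root of F, and approximate 95% intervals follow from it under a normal approximation. A count was worth 0.0508 to 0.0577 CPM. Wilson intervals of count shares cover counting error only. On data simulated for this comparison (14074 genes passing the filter) the test recovered 100% of genes changed 4-fold, 97% changed 2-fold and 84.8% changed 1.5-fold. There were 11 false calls among 199. The simulation changed only genes above a minimum level and took its dispersions from these same libraries. Changes smaller than 1.5-fold were not simulated, so the recovery does not cover most members, whose fitted changes were smaller. Alternatives were DESeq2 1.42.0, RLE scaling, no filter, a replicate block, removal of each library's GC trend, omission of ribosomal RNA rows and omission of each library. Same-numbered libraries did not deviate together (correlation across genes -0.029), and nothing in the labels pairs them.

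The members and lists were chosen with earlier results of these data known. All 32 members are named, and of the other lists the called genes and Ch25h, except a few genes that are not reported here. Uncalled genes of those lists that were called in an alternative are named too, a choice made after their values were seen. Coordinates are those of the deposited table, identical to GENCODE M21 for all 32. Promoter sequences are from RefSeq.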

Additional observations from a re-analysis of the deposited data

How the results depend on the processing

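Members called lower numbered 23 with RLE scaling, without the filter on low counts, with the replicate block, after removal of the GC trend and without ribosomal RNA rows, 21 by DESeq2, and 19 to 21 when single libraries were left out; members called higher numbered 0 throughout. Of the 23 members called lower, 17 were called lower in all 10 alternatives, and the exceptions were Fdft1, Hmgcs1, Insig1, Mvk, Sc5d and Scap. The members' median change was -0.32 after removal of the GC trend and -0.39 to -0.33 when single libraries were left out. The sign turned only for Stard4 (0.03) and Fads1 (0.03), both without cKO-labelled library 2, against lows of -0.11 and -0.19 without cKO-labelled library 1, and neither was called in any setting. Genes called lower over the whole table numbered 795 by DESeq2 against 1353, and other pathway genes called higher numbered 3 to 5 when single libraries were left out. For these differences the cause was not tested. The replicate block, for which the labels give only shared numbers, kept all 32 members on the same side of the threshold and moved the calls over all genes to 1904 higher and 1594 lower. With 2 libraries per genotype the members' SEs were 0.055 to 0.27, which limits how small a change could be called.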

Other observations

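Genes of lipid uptake and storage had calls in both directions. Of 11 tested and reported, 1 fell and 3 rose, where 9.54% of all genes tested were called lower and 12.2% higher. These counts were not tested against those shares. Scarb1, a receptor for high-density lipoprotein, fell from 43.1 and 44.2 CPM in wild type to 25.6 and 21.5 CPM in the cKO-labelled libraries (-0.89 ± 0.098, edgeR adjusted p = 2.57e-07). Cd36, a scavenger receptor that takes up fatty acids, rose from 20.3 and 18.9 CPM to 52.0 and 56.0 CPM (1.46 ± 0.092, adjusted p = 1.63e-11). Fabp5, a fatty acid carrier, changed by 0.35 ± 0.084 (adjusted p = 0.00344) and Npc2, which hands cholesterol on from lysosomes, by 0.31 ± 0.058 (adjusted p = 3.70e-04). For each of these 4 genes the libraries of both genotypes did not overlap. Over all genes tested, 28.7% lay without overlap lower in the cKO-labelled libraries and 29.2% higher. Cd36 is also carried by myeloid and marginal zone B cells. The summed dendritic cell markers were 60.1 and 59.1 CPM in wild type against 114 and 119.8 CPM, with 4 of 5 tested markers called higher. The summed macrophage markers were 129 and 124 CPM against 46.6 and 55.5 CPM, but only 1 of 5 tested was called lower. Of the 8 markers in each list, 3 dendritic and 4 macrophage markers were under 1 CPM in all libraries. The part of such cells in the rise of Cd36 was not tested.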
